A study of Homo sapiens with 2 samples.

Results

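The genes described here encode class I and class II human leukocyte antigens (HLA) and their companion CD74: HLA-B, HLA-C, HLA-E, HLA-DRA, HLA-DRB1, HLA-DPA1, HLA-DPB1, HLA-DMA and CD74. They are 9 of the 31845 genes listed in a gene expression table of 2 RNA sequencing libraries, and each of the 9 symbols matched 1 Ensembl identifier. The members were chosen by name with their counts in both libraries already known, so their own ratios are a description and not a test. The first library comes from a Capan-1 derivative that grew resistant while olaparib, a PARP inhibitor, was raised in steps between 15 nM and 128 uM. The second comes from the untreated parental Capan-1 line. Capan-1 is an established line from a human adenocarcinoma of the pancreas, although the cell type field of the labels says breast cancer. It is known for a BRCA2 mutation, and whether the derivative still carries it was not determined here. Both lines were grown in RPMI1640 with serum, and the derivative is a single selected line. The heading of 1 pair of columns is not spelled out in the labels and was taken as the resistant line because only that library remained; each direction given rests on this.

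Class I molecules pair a heavy chain with beta-2-microglobulin and show peptides from inside the cell to CD8+ T cells on nearly all nucleated cells. Class II molecules are heterodimers of an alpha and a beta chain that show peptides from endosomes to CD4+ T cells. They are made mainly by dendritic cells, macrophages and B cells, while epithelial cells make them chiefly under interferon gamma. CD74, the invariant chain, fills the class II groove during assembly, and the HLA-DM dimer of HLA-DMA and HLA-DMB removes its last fragment so that peptide can bind. NLRC5 drives class I transcription and CIITA class II transcription, both by docking on a complex of RFX5, RFXAP, RFXANK, CREB1 and NF-Y at promoters.

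That complex reads short promoter elements, of which the inverted CCAAT element, spelled ATTGG, binds NF-Y. The promoter windows below are shown because HLA-DR, HLA-DP and HLA-DM transcripts differed between the libraries in different ways. Whether these letters have a part in those differences was not tested. They come from RefSeq, build GRCh38.p14, and are written along the strand of the gene. Capitals mark a single match in each window, of GNAAC with ATTGG for HLA-DRB1 and HLA-DRB5 and of ATTGG alone for the others. Further matches to searched letters within the HLA-B and HLA-C windows are left in lower case. Both strands were searched, and CCAAT is ATTGG on the other strand.
HLA-DRB1 (chr6:32589880-32589936, minus strand): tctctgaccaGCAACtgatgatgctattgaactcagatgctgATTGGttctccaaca
HLA-DRB5 (chr6:32530363-32530419, minus strand): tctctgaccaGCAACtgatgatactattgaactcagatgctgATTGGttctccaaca
HLA-DMA (chr6:32953162-32953216, minus strand): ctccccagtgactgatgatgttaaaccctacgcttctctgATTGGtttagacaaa
HLA-DMB (chr6:32941006-32941060, minus strand): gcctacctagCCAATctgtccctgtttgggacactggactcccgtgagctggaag
HLA-DPB1 (chr6:33075851-33075905, plus strand): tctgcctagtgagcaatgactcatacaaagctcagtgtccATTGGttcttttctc
HLA-B (chr6:31357246-31357300, minus strand): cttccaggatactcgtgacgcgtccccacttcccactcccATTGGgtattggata
HLA-C (chr6:31272158-31272212, minus strand): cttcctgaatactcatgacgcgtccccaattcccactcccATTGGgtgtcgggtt

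A spaced pair, GNAAC followed after 20 to 36 bases by ATTGG, was found in the HLA-DRB1 and HLA-DRB5 windows, with a gap of 27 bases in each. Among class II genes outside HLA-DR it was found in the promoters of HLA-DQA1, HLA-DQA2 and HLA-DOA. It occurred in 2.36% of all 34943 promoters of the same length, and in no promoter of HLA-DMA, HLA-DMB, HLA-DPA1, HLA-DPB1, HLA-B, HLA-C or CD74. ATTGG alone occurred in 34.7% of all promoters. There were 4 matches in the HLA-C promoter, 3 in that of HLA-B, 2 each in those of HLA-DRB1, HLA-DMA and HLA-DPB1 and 1 in those of HLA-DMB and CD74. TGACG, the core of a CREB1 element, occurred in 24.5% of all promoters, and in those of HLA-B, HLA-C, HLA-DMB, HLA-DPA1 and HLA-DPB1. RefSeq promoter entries matched 7 of the 9 members, without HLA-E and HLA-DRA. A match describes letters only and does not show that a factor bound. Only exact letters were searched, so a missing match does not show that a promoter lacks the element.

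The library totals were 34507480 counts in the resistant line and 34572931 in the parental line. There was 1 library per group, so no test between the lines was possible and no replicate error is known. Each 95% interval covers counting error only. Of the listed epithelial markers, 7 of 7 were measured, led by EPCAM with 76990 counts in resistant cells and 43076 in parental cells. The 7 summed to 2214 FPKM in resistant cells and 1490 in parental cells. The 6 of them with at least 50 counts had a median log2 ratio of 0.43, and the part of these markers in the results below was not tested. Markers of professional antigen-presenting cells (8 of 12 measured) summed to 82 counts in resistant cells and 61 in parental cells, and none reached 50 counts. In FPKM the order was the other way, with 0.469 in resistant cells and 0.830 in parental cells. CSF1R had 47 counts in resistant cells and 7 in parental cells, while ITGAM had 5 in resistant cells and 23 in parental cells. CD14 was at 0 in resistant cells, and CD79A and CD163 at 0 in parental cells. The defining leukocyte gene PTPRC had 19 counts in resistant cells and 7 in parental cells. T and NK cell markers (5 of 8) summed to 11 counts in resistant cells and 25 in parental cells. Endothelial markers (3 of 5) summed to 10 counts in resistant cells and 3 in parental cells. Fibroblast markers (5 of 6) summed to 580 counts in resistant cells and 133 in parental cells, and LUM alone had 523 in resistant cells and 35 in parental cells. COL1A1 had the other direction, with 38 counts in resistant cells and 97 in parental cells. In bulk RNA, fewer cells making a transcript and less transcript per cell cannot be told apart.

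Levels are compared between genes as the deposited FPKM, which is per length. Which lengths the authors divided by is not given in the sources used here. Counts over FPKM imply a length for HLA-DRA 2.30 times that of CD74, although the annotated transcripts of HLA-DRA hold 1279 distinct 50-base words and those of CD74 3509, and a length for HLA-E 4.68 times that of CD74. Orders between genes rest on these lengths, and ratios of a gene between the lines do not. In the resistant library the order was HLA-B at 47.9 FPKM, HLA-E at 14.3, HLA-C at 9.71, CD74 at 6.47, HLA-DPB1 at 0.958, HLA-DRA at 0.946, HLA-DPA1 at 0.407, HLA-DRB1 at 0.268 and HLA-DMA at 0.203. In the parental library it was HLA-B at 30.7 FPKM, HLA-E at 19.7, HLA-C at 11.8, CD74 at 4.44, HLA-DRA at 1.78, HLA-DMA at 1.42, HLA-DRB1 at 0.651, HLA-DPB1 at 0.406 and HLA-DPA1 at 0.238. The first 4 places were held by the same genes in both libraries, and the class II order differed. Counting intervals of neighbours overlapped for HLA-DPB1 and HLA-DRA, HLA-DPA1 and HLA-DRB1, and HLA-DRB1 and HLA-DMA in resistant cells. They overlapped for HLA-DRA and HLA-DMA, HLA-DRB1 and HLA-DPB1, and HLA-DPB1 and HLA-DPA1 in parental cells. HLA-B stood above 91.1% of the 15102 genes that reached 50 counts in either library, by FPKM, in the resistant line, and above 87.9% in the parental line. HLA-DMA stood above 3.44% in the resistant line and 25.6% in the parental line.

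**Figure D1:**
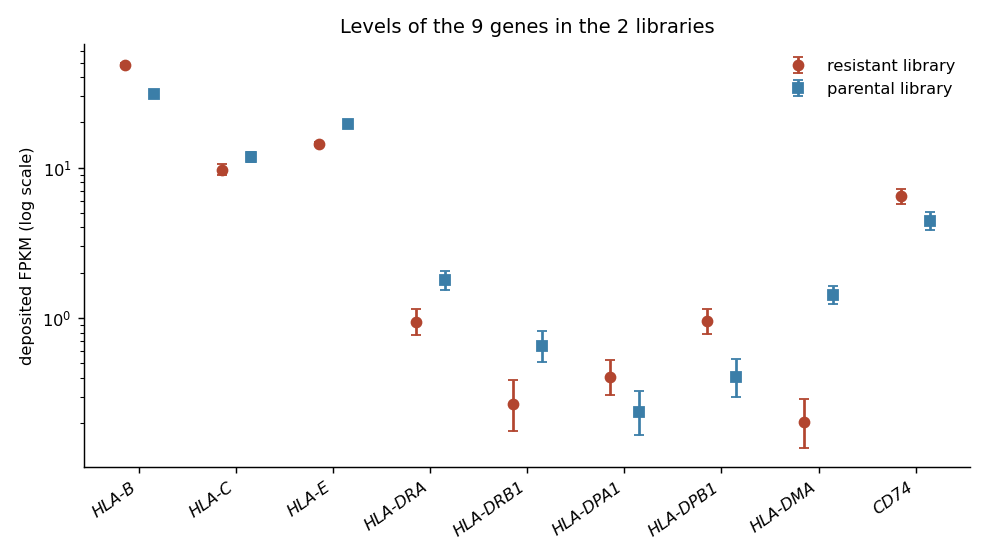
Deposited FPKM (log axis) of the 9 genes in resistant cells (circles) and parental cells (squares); bars are 95% counting intervals. Class I genes and CD74 lie above 4 FPKM in both libraries, and the HLA-DR, HLA-DP and HLA-DMA genes below 2.

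Of the 9 genes, all of which reached 50 counts in 1 library or both, 1 was past 2-fold higher in the resistant line and 2 past 2-fold lower. Over all 15102 such genes, 6.00% were past 2-fold higher and 8.95% past 2-fold lower. The rule used this contrast, so nothing is read from the comparison of these shares. The log2 ratios, resistant over parental, were above 0 for 4 genes and below 0 for 5. They ran from -2.82 to 1.17 with a median of -0.33, while the median over all genes was 0.06.

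Class I heavy chains differed in both directions. HLA-B, a classical presenter of cytosolic peptides, had 3741 counts in resistant cells and 2500 in parental cells. Its level was 1.51-fold higher (interval 1.43 to 1.58; log2 ratio 0.59). HLA-C, which presents peptides and is also a ligand of killer cell receptors, had 623 counts in resistant cells and 789 in parental cells. It was 1.26-fold lower (interval 1.13 to 1.40; log2 ratio -0.33). HLA-E, which carries signal peptides of other class I chains and engages the NKG2A receptor of NK cells, had 3176 counts in resistant cells and 4538 in parental cells, 1.42-fold lower (interval 1.36 to 1.49; log2 ratio -0.51, or -0.33 once the trend of ratios with gene length was removed). Each of the 3 counting intervals lay on 1 side of equal levels, and none of the 3 genes differed by 2-fold.

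HLA-F and HLA-G, both nonclassical class I heavy chain genes, had ratios closer to that of HLA-B than to those of HLA-C and HLA-E. HLA-F had 479 counts in resistant cells and 301 in parental cells, a log2 ratio of 0.68. HLA-G, with 59 counts in resistant cells and 49 in parental cells, had a fold change whose interval included equal levels (log2 ratio 0.27).

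Class I heavy chains share sequence, so a read can belong to several of them. The longest identical coding stretch of HLA-B and HLA-C in GENCODE release 29 is shown because a read wholly inside it matches both genes equally.
HLA-B and HLA-C, coding bases 420 to 485 in both: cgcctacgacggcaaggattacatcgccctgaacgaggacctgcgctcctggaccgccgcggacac
It is 66 bases long. HLA-C and HLA-E shared a run of 75 bases and HLA-B and HLA-E one of 50. Of the distinct 50-base words in the annotated transcripts of each gene, 2.48% of those of HLA-B also occurred in HLA-C, and 2.87% of those of HLA-C in HLA-B. Words shared with any other gene on either strand made up 17.8% for HLA-B, 5.70% for HLA-C and 4.87% for HLA-E. Most of those of HLA-B lay in AL671883.2, a pseudogene annotated on the opposite strand that had 1 count in each library. These shares hold for the reference alleles, and the HLA alleles of Capan-1 are not used here. HLA-B and HLA-C together had 4364 counts in resistant cells and 3289 in parental cells, 1.34-fold higher (interval 1.28 to 1.40).

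Class II chains differed by isotype. HLA-DRA, the alpha chain shared by all HLA-DR molecules, had 103 counts in resistant cells and 202 in parental cells. It was 1.95-fold lower (interval 1.53 to 2.49; log2 ratio -0.96). HLA-DRB1, the main HLA-DR beta chain, had 28 counts in resistant cells and 71 in parental cells, 2.52-fold lower (interval 1.61 to 4.05; log2 ratio -1.30). Its paralog HLA-DRB5 had 8 counts in resistant cells and 20 in parental cells, under the count minimum. All 3 HLA-DR genes thus had lower values in resistant cells, though reads of HLA-DRB1 and HLA-DRB5 cannot be fully told apart. Their sum of 139 counts in resistant cells, against 293 in parental cells, was 2.09-fold lower (interval 1.71 to 2.58).

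HLA-DP chains lay on the other side. HLA-DPA1, the alpha chain, had 59 counts in resistant cells and 36 in parental cells, 1.65-fold higher (interval 1.07 to 2.57; log2 ratio 0.71). HLA-DPB1, the beta chain, had 111 counts in resistant cells and 49 in parental cells, 2.28-fold higher (interval 1.61 to 3.26; log2 ratio 1.17). The 2 genes together had 170 counts in resistant cells and 85 in parental cells, 2.01-fold higher (interval 1.54 to 2.64). The sum of the HLA-DR and HLA-DP members did not show this, with 301 counts in resistant cells and 358 in parental cells. HLA-DQB1 had 0 counts in resistant cells and 3 in parental cells, and HLA-DOA, a chain of an HLA-DM inhibitor, had 6 counts in resistant cells and 7 in parental cells.

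The balance of alpha to beta chain had overlapping counting intervals in the 2 libraries for both isotypes. HLA-DRA had 3.53 times the FPKM of HLA-DRB1 in resistant cells (interval 2.31 to 5.57) and 2.73 times in parental cells (2.07 to 3.63). HLA-DPA1 had 0.425 times the FPKM of HLA-DPB1 in resistant cells (0.304 to 0.588) and 0.586 times in parental cells (0.370 to 0.920). The interval of the change in balance included 1 in each case, from 0.768 to 2.21 for HLA-DR and from 0.411 to 1.28 for HLA-DP, so a difference of balance was not detectable at this depth.

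HLA-DRB1 and HLA-DRB5 shared a longer identical coding run than the class I pair, shown because it limits how their few reads can be divided.
HLA-DRB1 and HLA-DRB5, coding bases 532 to 629 in both: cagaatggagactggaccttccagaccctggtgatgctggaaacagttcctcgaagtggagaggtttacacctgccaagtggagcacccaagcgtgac
It is 98 bases long, and 8.64% of the 50-base words of HLA-DRB1 also occurred in HLA-DRB5. HLA-DRA shared no such word with another gene, and its ratio had the direction of that of HLA-DRB1. These shares hold for the reference alleles, and whether Capan-1 carries HLA-DRB5 was not determined. HLA-DPA1 and HLA-DPB1 lie head to head on opposite strands with 96 exonic bases in common, 1.67% of the exonic bases of HLA-DPA1 and 3.44% of those of HLA-DPB1.

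The class II chaperones separated most. HLA-DMA, the alpha chain of the peptide exchange factor, had 30 counts in resistant cells and 219 in parental cells. It was 7.25-fold lower (interval 4.94 to 11.0; log2 ratio -2.82), a ratio below which only 0.649% of the 15102 genes lay. HLA-DMB, its obligate beta chain, had 64 counts in resistant cells and 29 in parental cells, 2.22-fold higher (interval 1.41 to 3.57; log2 ratio 1.13). HLA-DMA therefore had 0.384 times the FPKM of HLA-DMB in resistant cells (interval 0.241 to 0.602) and 6.21 times in parental cells (4.20 to 9.49). The alpha to beta balance was 15.9-fold lower in the resistant line (interval 8.66 to 30.1), and the more abundant chain differed between the libraries. HLA-DMB is named by the rule for other HLA genes and was not one of the 9.

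HLA-DMA and HLA-DMB are neighbours on the same strand, and their longest identical coding run was 11 bases. GENCODE places a further coding gene, AL645941.2, over exons of both, where it covers 6.87% of the exonic bases of HLA-DMA and 9.41% of those of HLA-DMB. It had 33 counts in resistant cells and 29 in parental cells. BRD2, on the opposite strand, overlaps 55 exonic bases of HLA-DMA and had 995 counts in resistant cells and 1443 in parental cells, a log2 ratio of -0.53. Whether counting used strand is not given in the sources used here, and the part of these overlaps in the result was not tested.

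CD74 had 306 counts in resistant cells and 219 in parental cells, 1.41-fold higher (interval 1.18 to 1.68; log2 ratio 0.49). It shared no 50-base word with another gene. CD74 had 6.84 times the FPKM of HLA-DRA in resistant cells (interval 5.45 to 8.63) and 2.50 times in parental cells (2.05 to 3.04), and its balance against HLA-DRA was 2.74-fold higher in the resistant line (interval 2.02 to 3.72). In counts, CD74 over HLA-DRA was 2.97 in resistant cells and 1.08 in parental cells, so the size of the excess in each library rests on the lengths behind the FPKM, while the change in balance between the libraries does not.

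**Figure D2:**
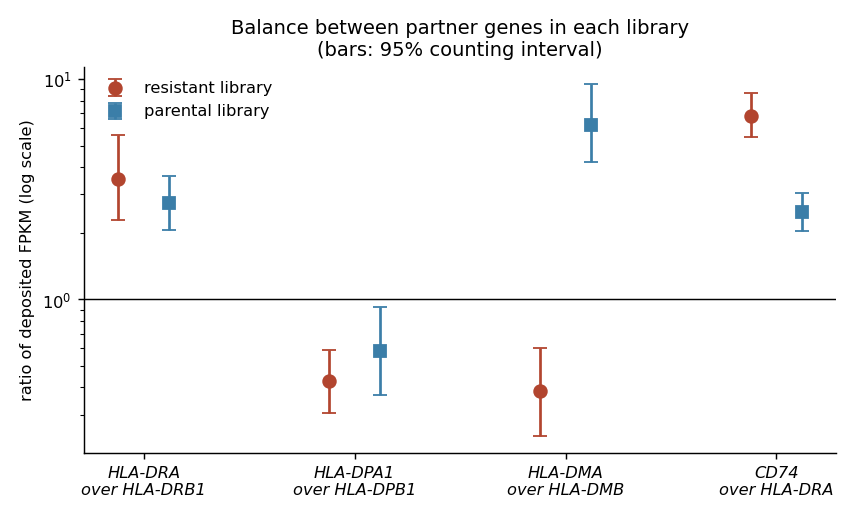
Ratio of the deposited FPKM of 2 genes within each library (log axis), resistant (circles) left of parental (squares), with 95% counting intervals. HLA-DMA over HLA-DMB lies at 0.384 in resistant cells and 6.21 in parental cells, on opposite sides of 1, while the intervals of both HLA-DR and both HLA-DP ratios overlap.

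The transcription factors that act on these promoters were listed by role. Of these 9 genes, 8 reached the minimum of 50 counts, 1 was past 2-fold higher, none past 2-fold lower, and the median log2 ratio was -0.10. For all 15102 genes at that minimum, 6.00% were past 2-fold higher, 8.95% past 2-fold lower, and the median was 0.06. CIITA, the class II transactivator, had 0 counts in resistant cells and 8 in parental cells. Against a floor of 3 counts per library this is at least 2.65-fold lower with the 8 parental counts taken as exact. The counting interval, which covers the error of both counts, has its lower limit at 1.70-fold lower. NLRC5, the class I transactivator, had 59 counts in resistant cells and 31 in parental cells, a log2 ratio of 0.92 (fold 1.92, interval 1.22 to 3.06). Both were scarce. CIITA was at 0 FPKM in resistant cells and 0.087 in parental cells, and NLRC5 at 0.411 FPKM in resistant cells and 0.207 in parental cells.

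RFXAP was the 1 regulator past 2-fold. It had 652 counts in resistant cells and 188 in parental cells, 3.49-fold higher (interval 2.96 to 4.13; log2 ratio 1.80). RFXAP lies on chromosome 13 near BRCA2, with 10 coding genes at 50 counts or more between them. Of these, 9 were at least 2-fold higher, against 6.00% of all 15102 genes at that minimum. BRCA2 itself had a log2 ratio of 2.47. The other subunits of the RFX complex were within 2-fold: RFX5 had a log2 ratio of 0.31 and RFXANK one of -0.45. RFXAP had 3.33 FPKM in resistant cells and 0.919 in parental cells, below RFX5 and RFXANK in both.

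Class I partners and peptide supply genes mostly had log2 ratios above 0. All 15 were measured, 14 had at least 50 counts, none was 2-fold higher or lower, and the median log2 ratio was 0.28, with 10 genes above 0 and 4 below. Over all 15102 genes, 7726 lay above 0 and 7376 below, with 6.00% past 2-fold higher and 8.95% past 2-fold lower. B2M, the light chain of class I, had 63897 counts in resistant cells and 46368 in parental cells, a log2 ratio of 0.47. TAP1, a subunit of the peptide transporter, had 1893 counts in resistant cells and 1297 in parental cells, a log2 ratio of 0.55, and the chaperone gene CANX had one of 0.48. The 4 genes below 0 were TAPBPL at -0.24, TAPBP at -0.19, CALR at -0.07 and PSMB10. The immunoproteasome genes PSMB8 and PSMB9, which neighbour TAP1, had log2 ratios of 0.47 and 0.46, and PSMB10, on another chromosome, one of -0.28. Once the trend of ratios with gene length was removed, B2M was at 0.38, TAP1 at 0.77 and CANX at 0.35. PSMB8 was then at 0.33, PSMB9 at 0.34 and PSMB10 at -0.38.

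Endosomal genes that prepare class II peptides or turn class II molecules over numbered 10, with 2 at least 2-fold lower, none 2-fold higher and a median log2 ratio of -0.75. Log2 ratios were above 0 for 3 of them and below 0 for 7. The shares for all 15102 genes were 8.95% lower and 6.00% higher, with a median of 0.06. CTSH, an endosomal aminopeptidase, had 4836 counts in resistant cells and 13683 in parental cells, a log2 ratio of -1.49. That ratio became -1.62 once the trend of ratios with gene length was removed. MARCHF1, a ligase that ubiquitinates class II molecules, had 92 counts in resistant cells and 236 in parental cells, a log2 ratio of -1.34 that became -0.91 once the trend of ratios with gene length was removed. CTSS, which cleaves the invariant chain, had a log2 ratio of -0.35 that became -0.04 with the trend removed. SPPL2A, which cleaves the remnant of that chain in the membrane, had one of 0.97 that became 0.86.

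For interferon gamma signalling, 10 of 11 genes reached 50 counts, 1 was at least 2-fold lower, and the median log2 ratio was -0.51. Among all 15102 genes at 50 counts, 8.95% were at least 2-fold lower, and the median was 0.06. JAK2, a receptor-bound kinase, had 2853 counts in resistant cells and 6358 in parental cells, a log2 ratio of -1.15 that became -0.87 with the trend removed. IRF1, a transcription factor induced by interferon gamma, had a log2 ratio of -0.56, or -0.70 with the trend removed. Class I-like genes had a median of 0.29 over 12 of the 14 measured, with 2 at least 2-fold lower, beside the same 8.95% of all genes. The 2 were AZGP1 and MR1. AZGP1, a soluble lipid-binding relative of class I, had 379 counts in resistant cells and 1490 in parental cells (log2 ratio -1.96, or -2.055 with the trend removed). MR1, which presents vitamin B metabolites to T cells, had a log2 ratio of -1.10, or -0.61 with the trend removed. Of the HLA pseudogenes, 5 of 8 measured had at least 50 counts. HLA-V had 108 counts in resistant cells and 28 in parental cells (log2 ratio 1.92), and HLA-L had 60 in resistant cells and 128 in parental cells (log2 ratio -1.07).

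**Figure D3:**
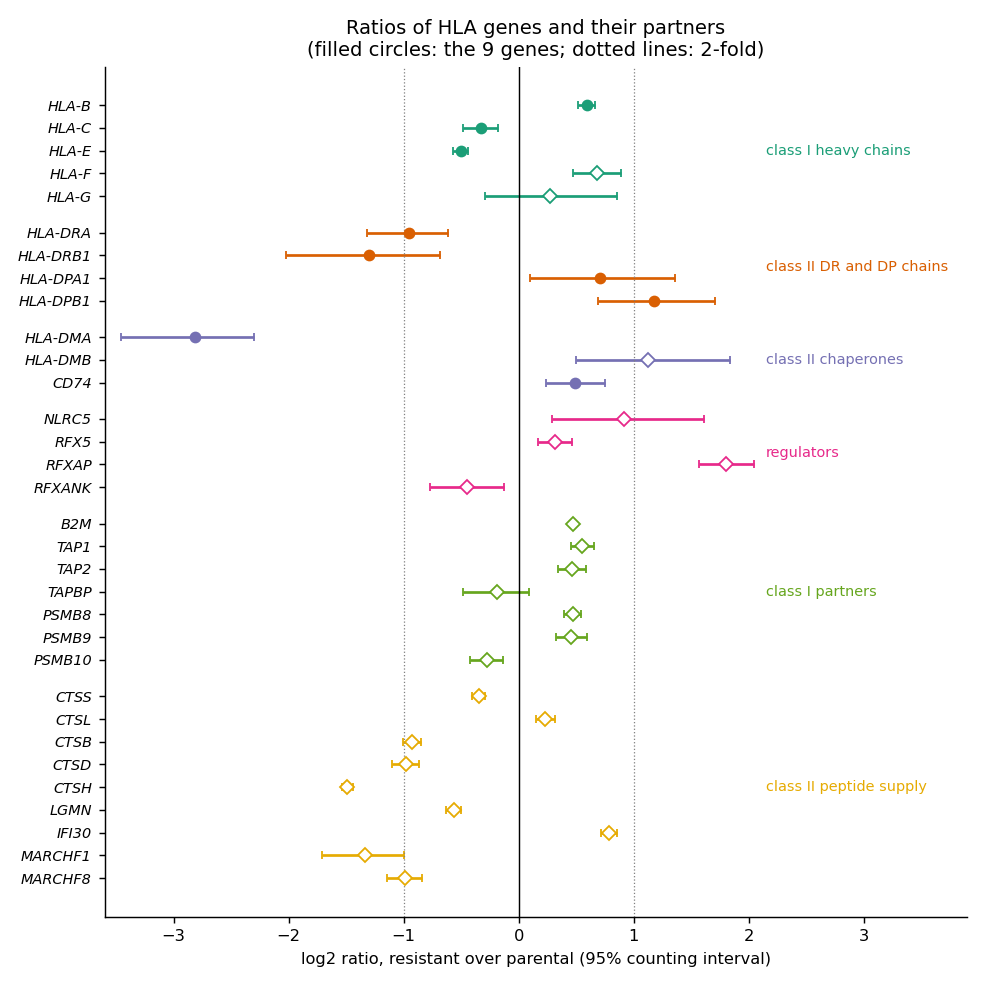
Log2 ratio of resistant over parental for HLA genes, regulators and selected members of the partner lists, with 95% counting intervals; filled circles mark the 9 genes and dotted lines 2-fold. HLA-DMA at -2.82 stands apart from HLA-DMB at 1.13, both HLA-DR genes lie left of 0 and both HLA-DP genes right of it. Among the genes not drawn are CIITA and, of the class II peptide supply, SPPL2A at 0.97.

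All members except CD74, which lies on chromosome 5, are within the HLA region of chromosome 6. From HLA-F to HLA-DPB1, 90 coding genes had at least 50 counts, with a median log2 ratio of 0.23, 7 past 2-fold higher and 7 past 2-fold lower. The 78 that are not HLA genes had a median of 0.23, with 5 higher and 5 lower. Over all 15102 genes with at least 50 counts, 6.00% were past 2-fold higher and 8.95% past 2-fold lower. In the class II region, HLA-DRA and HLA-DRB1, at -0.96 and -1.30, were followed in gene order by AL669918.1, TAP2, PSMB8, PSMB9 and TAP1, which lay between 0.45 and 0.55. Then came HLA-DMB at 1.13, HLA-DMA at -2.82, BRD2 at -0.53, HLA-DPA1 at 0.71 and HLA-DPB1 at 1.17. Neighbouring genes there thus differed in sign, and HLA-DMA had the lowest ratio of the 90. HLA-C and HLA-B, next to each other in the class I region, also had opposite signs.

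**Figure D4:**
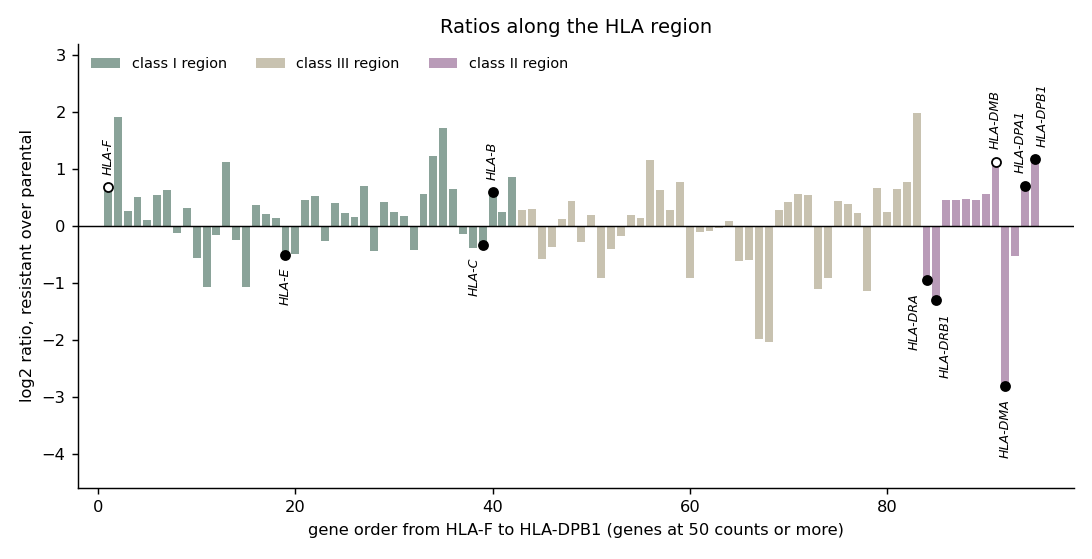
Log2 ratio of resistant over parental for 95 genes (coding genes and HLA pseudogenes with at least 50 counts) in gene order from HLA-F to HLA-DPB1, with bars coloured by region; filled points mark members and open points HLA-F and HLA-DMB. Members lie on both sides of 0 among neighbours that are mostly within 1 of it.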

How the data were processed

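RNA sequencing libraries of the resistant and the parental line, 1 each, were made strand-specific from total RNA, per the labels' protocols. The authors deposited raw counts and FPKM per Ensembl gene, per the file headers. Per the submitters' processing notes, RSEM 1.2.3 and hg19 were used, with no role stated. Not given in the sources used here are the annotation, read length, handling of reads that match several genes, and use of strand.

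Symbols came from a gene name table, which matched 29536 of 31845 identifiers. The 2309 without one took up 7.61% of resistant and 9.58% of parental counts, and whether any are HLA copies on alternate haplotypes was not determined. GENCODE release 29 and RefSeq, of another build than hg19, gave gene order, overlaps, 50-base words and promoters. Promoters run from 250 bases before to 50 after the start.

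Counts were scaled with TMM in edgeR 4.0.16 (R 4.3.3), and 1 count was added as a prior for log2 ratios. Calls of 2-fold needed 50 counts in either library. For ratios, exact 95% intervals (Clopper-Pearson, conditional on the sum) are given. Reads are not independent molecules, so intervals and floors cover counting error only. The calculations were tested on simulated data with counting error only, which covers neither replicate error nor shared reads. Fold changes were placed only in genes with higher mean counts than HLA-DRB1, HLA-DPA1, HLA-DPB1 and HLA-DMB had. Alternatives were scaling by DESeq2 1.42.0 size factors (over genes with 50 counts, since the median over all genes is a tie), upper quartile or totals, other prior counts, minimums and fold sizes, and the deposited FPKM. Removal of the trend with length was chosen after seeing the data.

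Members and lists were chosen with earlier results of these data known. Named genes were the members, other HLA genes at 50 counts, the transactivators and RFX genes, B2M, and from each list up to 4 genes past 2-fold or otherwise the 2 with the largest ratios. HLA-DRB5, HLA-DQA1, HLA-DQA2, HLA-DQB1, PSMB8, PSMB9, PSMB10, TAP2, TAPBP, TAPBPL, CALR, CTSS, SPPL2A, IRF1, AL671883.2, AL645941.2, AL669918.1, BRD2, BRCA2, NFYA, HLA-DOA and the cell type markers were named after their values were seen. Some genes of these lists, and sums and shares that hold them, are not reported here. Tables and plots were made in Python 3.11.15 (pandas 2.3.3; scipy 1.17.1).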

Additional observations from a re-analysis of the deposited data

How the results depend on the processing

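No paired analysis was possible because each group has 1 library. No alternative changed the sign of a member's log2 ratio. Scaling could not do so, since each choice shifted every ratio equally, by -0.06 to 0.07, and the smallest in size was -0.33 for HLA-C. Of 63 alternative values of the 9 members, 60 stayed within the counting interval, and the 3 that did not belonged to HLA-B (0.47 without the length trend) and HLA-E (-0.43 under upper quartile scaling, -0.33 without the length trend). HLA-DRA crossed 2-fold under median of ratios scaling (-1.02) and without the length trend (-1.04). HLA-DMA ranged from -2.88 to -2.67, HLA-DPB1 from 1.08 to 1.24 and HLA-DRB1 from -1.39 to -1.19. A stricter count minimum left 0 members past 2-fold higher and 1 lower, a bound of 1.5-fold gave 3 higher and 3 lower, and one of 4-fold gave 0 higher and 1 lower, as fewer or more genes then qualify. The median log2 ratio of the other HLA genes, 0.62 over the 4 at 50 counts, was 0.27 with no count minimum, which adds genes under 50 counts. In counts in place of FPKM, CD74 over HLA-DRA was 2.97 in resistant cells and 1.08 in parental cells, because FPKM divides by a length and counts do not; whether those lengths fit the transcripts present was not tested. Across all genes the median shifted by -0.06 to 0.07 with scaling. Among 406 values of partner genes 354 stayed within the counting interval, 1 changed sign (NFYA, 0.00 under upper quartile scaling) and 9 crossed 2-fold. Of the class II peptide supply genes, 4 were at least 2-fold lower under median of ratios scaling. Under upper quartile scaling, and in the deposited FPKM, 1 of them was at least 2-fold higher. Without the length trend the median was 0.16 for class I partners, -0.69 for class II peptide supply and -0.62 for interferon gamma signalling. Summing identifiers per symbol was not run, since each symbol had 1. The counts of HLA-DRB1, HLA-DPA1, HLA-DPB1, HLA-DMA and HLA-DMB, none above 219, limit their ratios.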
